A study of Danio rerio with 2 samples.

Results

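Transcript levels of 10 transcription factors of blood stem, red and myeloid cells were measured by RNA sequencing in cells sorted from zebrafish (Danio rerio) embryos. The factors tal1, lmo2, gata1a, gata2a, gata2b, runx1, myb, gfi1aa, gfi1b and spi1b were taken by gene name from the 21699 genes in the deposited tables. All 10 were listed in both tables, 8 under a matching symbol and 2 under the human symbol without its paralog letter. These 2 were gata2a, listed as GATA2 beside a separate gata2b, and spi1b, listed as SPI1 beside a separate spi1a. The embryos came from crosses of fish that carried Tg(kdrl:GFP) and were heterozygous for tsu3994, an allele of gbf1, which encodes an exchange factor for ARF GTPases at the Golgi. At 44 hours post fertilization they were separated by morphology into normal siblings and mutants, and kdrl:GFP+ cells of each were collected by flow cytometry. In this transgene the promoter of the VEGF receptor gene kdrl drives green fluorescent protein, which labels endothelial cells. Each group is 1 library. The labels describe both groups by morphology alone, and the number of embryos pooled is not given in the sources used here. There are no replicates, so each difference compares these 2 libraries and has no test between conditions.

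Blood cells in the vertebrate embryo arise in waves. A first, primitive wave makes circulating red cells and early myeloid cells, and stem cells later emerge from the hemogenic endothelium in the floor of the dorsal aorta. Tal1 and Lmo2 act together with E proteins, Ldb1 and a GATA factor in a complex that occupies the regulatory regions of blood and endothelial genes. Gata2 and Runx1 act in the hemogenic endothelium, Myb in the stem and progenitor cells that leave it, Gata1 in red cells and PU.1, the product of spi1b, in myeloid cells. Gata1 and PU.1 are known to antagonise each other. Gfi1 proteins are repressors that silence endothelial genes in the mouse as blood cells form.

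The sibling library held 5657525 and the mutant library 6169373 expected counts, which are read counts estimated by dividing reads that match several genes. Levels are given in FPKM, fragments scaled by gene length and by the assigned fragments of the library. The RNA did not come from endothelial cells alone, and whether the other cells were sorted or only their RNA was carried along was not tested. The 10 genes with the highest mean FPKM, globins among them, held 35.9% of sibling and 27.7% of mutant counts. Of 19 pan-endothelial marker genes, all were listed in both libraries, and their summed level was 94.8 FPKM in siblings and 298 FPKM in mutants. The 24 erythroid marker genes summed to 374716 and 285238 FPKM. Fold differences are given as log2((mutant FPKM + 1)/(sibling FPKM + 1)), and a gene was called at least 2-fold higher or lower at 1 or -1 when it reached 5 FPKM and 20 expected counts in at least 1 library. The median log2 fold of the 8641 genes past these limits was 0.27, and 7.72% were called higher and 1.05% lower. Of these calls 88.0% were higher, against 67.0% under TMM scaling, 66.0% under median-of-ratios scaling, 63.2% once centred on the median gene and 77.6% after rescaling without the 10 highest genes. In the lists of other factors and markers the limit was instead a mean FPKM of at least 1, with no limit on counts. Some list genes given as at least 2-fold higher or lower, such as havcr1 and hbaa1, thus lay below 5 FPKM and 20 counts. Of all 14855 genes with a mean FPKM of at least 1, 7.22% were at least 2-fold higher and 1.29% lower. Shares of count intervals are given over the 8641 tested genes only. Whether an interval excludes 1 depends on the counts, so for the lists those shares are over unlike sets. Brackets after a count ratio give its exact conditional 95% interval, which covers counting error only and not variation between embryos or sorts.

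In both libraries the red cell factor gata1a was the highest of the 10 and gata2b the lowest. The sibling levels ran from gata1a at 131 FPKM through gfi1b at 68.3, lmo2 at 56.7, tal1 at 19.3, myb at 10.6, gata2a at 7.80, runx1 at 5.72, gfi1aa at 3.57 and spi1b at 2.87 to gata2b at 0.89 FPKM. In that order gata2a and runx1, runx1 and gfi1aa, and gfi1aa and spi1b were neighbours whose levels did not differ beyond counting error. In the mutant library the order was gata1a at 161 FPKM, lmo2 at 57.6, gfi1b at 50.5, tal1 at 26.9, myb at 25.1, gfi1aa at 15.6, spi1b at 11.1, gata2a at 8.41, runx1 at 7.14 and gata2b at 1.47 FPKM. There tal1 and myb, and gata2a and runx1, did not differ beyond counting error, and lmo2 stood above gfi1b by a ratio of 1.14 (1.01 to 1.296). Thus in FPKM order gfi1aa and spi1b stood below gata2a and runx1 in the sibling library and above both in the mutant library. Their places against runx1 rest on 14 and 19 runx1 counts, and in siblings runx1 and gfi1aa did not differ beyond counting error. The 3 highest factors, gata1a, gfi1b and lmo2, made up 83.5% of the summed FPKM of the 10 in siblings and 73.8% in mutants. The runx1 level is per length of a single listed transcript of 452 bases, while the other 9 had listed lengths of 1310 bases or more, so its rank depends on that short gene model.

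**Figure D1:**
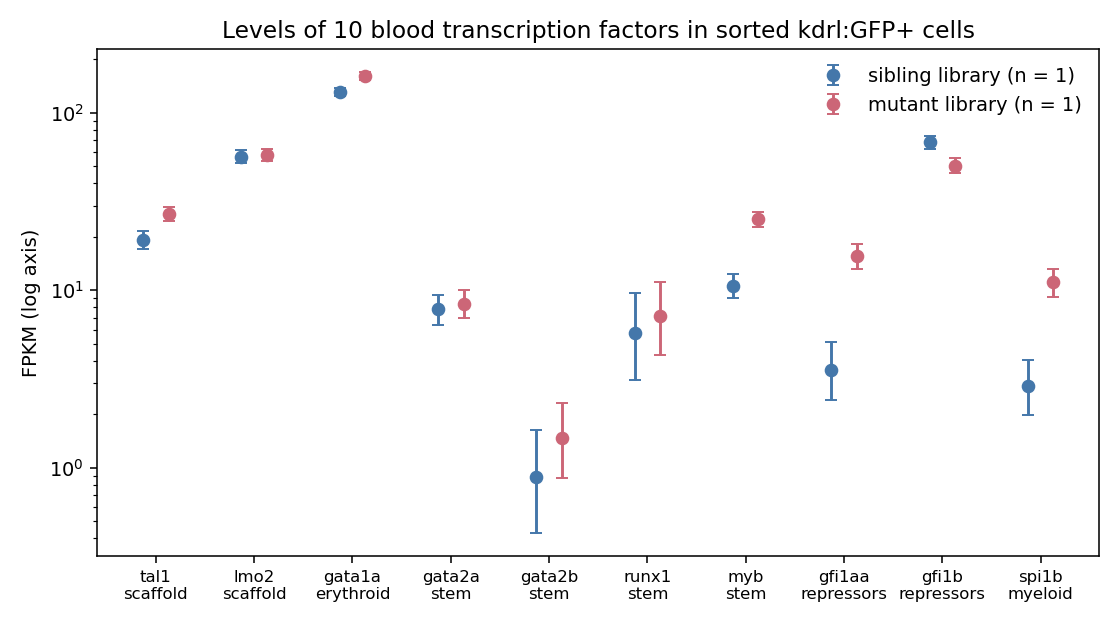
FPKM on a log axis of the 10 factors in the sibling (blue) and mutant (red) library, 1 library each, with bars for the exact 95% Poisson interval of the counts. The levels of myb, gfi1aa and spi1b stand furthest apart between the libraries, and the bars of tal1 and gata1a do not overlap either. gfi1b is lower in the mutant library, and the bars of lmo2, gata2a, gata2b and runx1 overlap.

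Of the scaffold pair, lmo2 was at nearly the same level in both libraries and tal1 was somewhat higher in mutants. lmo2 (ENSDARG00000095019), a LIM-domain protein that bridges DNA-bound partners without binding DNA itself, was at 56.7 FPKM in siblings and 57.6 FPKM in mutants. It had 590 and 652 expected counts, which gave a ratio of 1.01 per library total (0.91 to 1.13). tal1 (ENSDARG00000019930), a basic helix-loop-helix factor without which embryos make no blood, was at 19.3 and 26.9 FPKM, with 296 and 449 counts and a ratio of 1.39 (1.199 to 1.62). The median gene had a count ratio of 1.21, so the interval of lmo2 lay below the median gene and that of tal1 held it. The log2 fold of lmo2, 0.02, became -0.25 under TMM and -0.15 without the 10 highest genes, while that of tal1 stayed above 0 in every setting, from 0.19 to 0.61. The count ratio of tal1 to lmo2, a pair chosen after the values were seen, was 1.37 times (1.14 to 1.66) as high in the mutant library. Both genes are also expressed by endothelial cells, and the pan-endothelial markers beside them had a median log2 fold of 1.35, with 13 of 19 genes at least 2-fold higher. Of all genes with a mean FPKM of at least 1, 7.22% were. Relative to kdrl, a comparison chosen after the values were seen, tal1 was at 0.42 (0.34 to 0.52) and lmo2 at 0.30 (0.25 to 0.37) of the sibling count ratio in the mutant library. In such sorted bulk RNA, fewer cells of a type and less RNA per cell cannot be told apart. Counts of tal1, lmo2 and gata1a were not whole numbers in either table, so part of their reads was shared with other genes.

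Among 13 genes for partners and cofactors of these proteins, none was at least 2-fold higher or lower by log2 fold, and their median was 0.19. The pair of genes named ldb1, for the adaptor that holds the complex together, were at 34.5 and 35.4 FPKM and at 33.1 and 33.2 FPKM. The E protein genes, whose products pair with Tal1 on DNA, differed among themselves. tcf12 was at 14.5 and 24.9 FPKM (count ratio 1.82, 1.59 to 2.09), tcf3b at 24.0 and 33.1 (1.37, 1.25 to 1.51) and tcf3a at 10.4 and 10.02 (0.79, 0.62 to 1.004). zfpm1, the GATA cofactor FOG1, was at 6.83 and 9.05 FPKM. cbfb, which encodes the partner that stabilises Runx proteins on DNA, was at 7.75 and 16.4 FPKM, with a log2 fold of 0.99 and a count ratio of 2.15 (1.81 to 2.57). runx3, a paralog of runx1, was at 6.62 and 7.34 FPKM.

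gata1a (ENSDARG00000013477), the red cell GATA factor that is mutated in the bloodless zebrafish line vlad tepes, was at 131 FPKM in siblings and 161 FPKM in mutants. Its counts of 1247 and 1640 had a ratio of 1.21 (1.12 to 1.299), the same as the median gene to 2 decimals, and its log2 fold of 0.29 became 0.01 under TMM and 0.02 once centred. The erythroid marker genes did not share this. Of 23 with a mean FPKM of at least 1, 22 had a count interval below 1 and none above. Among all tested genes these shares were 8.99% and 46.1%. The median log2 fold of the 23 was -0.33, and 1, the globin gene hbaa1, was at least 2-fold lower, on 17.5 and 2.94 counts. Relative to alas2, the first enzyme of red cell heme synthesis, gata1a was 1.44 times (1.33 to 1.55) as high in the mutant as in the sibling library. Globin genes share reads and take a large part of each library, and their part in this result was not tested. Of the erythroid marker genes, a second gene named slc4a1 had an entry in the mutant table alone, at 0.06 FPKM, and was set to 0 in the sibling library.

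Of 14 other red cell factors none was at least 2-fold higher or lower. Their log2 folds ran from -0.34 to 0.95, with a median of 0.18. klf1, a red cell activator of globin genes in mammals, was at 24.8 and 31.1 FPKM, with a count ratio of 1.25 (1.09 to 1.43). klf17 was at 49.4 and 38.7 FPKM, and it was the 1 gene of the list whose interval lay below 1 (0.78, 0.68 to 0.89). The intervals of 4 genes of the list lay above 1 and those of 9 held 1. Among all tested genes 8.99% had an interval below 1 and 46.1% above. gata1b, the paralog of gata1a, had a low level of 2.34 and 5.44 FPKM, with 13.7 and 32.6 counts and a ratio of 2.16 (1.13 to 4.37). bcl11a, a globin repressor in mammals, was at 5.88 and 10.9 FPKM, but with a count ratio of 1.17 (1.01 to 1.36), since its listed length differed between the tables. foxo3b was at 24.4 and 32.8 FPKM (count ratio 1.26, 1.13 to 1.41).

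Of the 4 stem cell factors, myb was called higher in the mutant library and the other 3 were not. myb (ENSDARG00000053666), which stem and progenitor cells need in the definitive wave, was at 10.6 FPKM in siblings and 25.1 FPKM in mutants. Its counts were 160 and 432, a ratio of 2.48 (2.06 to 2.99), and 4.93% of the tested genes had a larger log2 fold than its 1.17. It lost the 2-fold call under TMM (0.90), median-of-ratios scaling (0.89), centring (0.90) and a pseudocount of 5 (0.94), while its interval lay above the ratio of the median gene. runx1 (ENSDARG00000087646), which drives the step from endothelium to blood, was at 5.72 and 7.14 FPKM with only 14 and 19 counts. The ratio was 1.24 (0.59 to 2.68), so a difference of 2-fold in runx1 was not detectable at this depth. gata2b (ENSDARG00000009094), which acts upstream of runx1 in zebrafish hemogenic endothelium, was at 0.89 and 1.47 FPKM with 10 and 18 counts (1.65, 0.72 to 4.002). Neither runx1 nor gata2b reached the limits for a call. gata2a (ENSDARG00000059327), expressed in endothelium and neurons as well as blood, was at 7.80 and 8.41 FPKM with 109 and 125 counts (1.05, 0.81 to 1.37), and its log2 fold of 0.10 became -0.15 under TMM.

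Summed over the 4 stem factors, counts were 293 and 594, a ratio of 1.86 (1.61 to 2.15). Without myb they were 133 and 162, a ratio of 1.12 (0.88 to 1.42), so the sum followed myb. Marker genes of other cell types that express these factors stood as follows. The 13 arterial and hemogenic endothelium genes summed to 121 FPKM in siblings and 259 FPKM in mutants, with a median log2 fold of 0.90. hey2, a gene named gja5, a gene named cxcr4 and dll4, a Notch ligand at 9.32 and 41.3 FPKM, were the 4 at least 2-fold higher, while adgrg1 was at 26.7 and 48.0 FPKM. Beside this list and the next, 7.22% of all genes with a mean FPKM of at least 1 were at least 2-fold higher. The 12 blood progenitor genes summed to 122 and 248 FPKM, with 4 of the 10 kept genes at least 2-fold higher. These were genes named gpr183 and myh9, the same cxcr4 gene and ptprc, which encodes CD45, at 4.22 and 10.8 FPKM. The difference of the sums rests largely on this myh9 gene, at 30.2 and 79.1 FPKM, and this cxcr4 gene, at 11.3 and 44.2 FPKM. The list entries gpr183a, cxcr4b and myh9b were each matched without the paralog letter to 2 genes, and both were summed. kit was at 1.78 and 1.92 FPKM, and flt3 had an entry in the sibling table alone, at 0.18 FPKM, and was set to 0 in the mutant library. The 11 genes of spinal V2b and KA neurons, which use gata2a, gata3 and tal1, summed to 50.0 and 50.4 FPKM. Of these, gata3 was at 10.1 and 10.02 and tal2 at 10.2 and 10.6 FPKM. The near equal sums hold differences in both directions. Of the 10 kept genes, 2 had a count interval above 1, 1 had it below 1 and 7 had it holding 1. Those above were vsx1, at 4.29 and 8.01 FPKM, and pkd2l1, at 2.03 and 3.5 FPKM. slc32a1 was the gene below, at 6.36 and 4.15 FPKM. The 4 genes of multiciliated cells, where myb also acts, summed to 17.2 and 23.5 FPKM, with none at least 2-fold higher or lower. The part of these cell types in the differences was not tested.

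The gfi1 genes differed in opposite directions. gfi1aa (ENSDARG00000020746), which is known from primitive blood and hemogenic endothelium in zebrafish, was at 3.57 FPKM in siblings and 15.6 FPKM in mutants. Its counts of 30 and 142 had a ratio of 4.34 (2.91 to 6.67), the largest of the 10 factors, and 73 of the 8641 tested genes had a larger log2 fold than its 1.86. gfi1b (ENSDARG00000079947), whose mouse counterpart also acts in red cells and megakaryocytes, was at 68.3 and 50.5 FPKM. Its counts of 512 and 411 had a ratio of 0.74 (0.64 to 0.84), and it was the single factor of the 10 with a negative log2 fold, -0.43. Of the tested genes 94.4% had a larger log2 fold than gfi1b, whose value stayed between -0.71 and -0.28 over the settings. Within a library, where scaling cancels, gfi1b stood 19.1 times above gfi1aa in FPKM in siblings and 3.25 times in mutants. The ratio of count ratios of gfi1aa to gfi1b, a pair chosen after the values were seen, was 5.90 (3.86 to 9.24).

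A further family member, listed under the human symbol GFI1 (ENSDARG00000044457) and matched to gfi1ab after the name table was seen, was at 0.29 FPKM with 2 counts in siblings and at 2.62 FPKM with 20 counts in mutants. Its count ratio of 9.17 had a wide interval (2.23 to 80.9). Gfi1 genes are also known from sensory hair cells of the ear and lateral line. The 11 hair cell genes summed to 18.9 FPKM in siblings and 44.3 FPKM in mutants, with 3 of the 8 kept genes, otof, myo6 and pvalb9, at least 2-fold higher and none lower. Over all genes with a mean FPKM of at least 1 the shares were 7.22% and 1.29%. pvalb9 was at 0.25 and 6.53 FPKM, with 1 and 32 counts, and s100t at 7.69 and 16.2 FPKM. The defining factor pou4f3 and tekt3 had entries in the mutant table alone, with 1 count each, and were set to 0 in the sibling library. The 9 thrombocyte genes, beside gfi1b, summed to 207 and 265 FPKM, with the platelet receptor genes gp1bb at 75.2 and 69.1 and gp9 at 43.8 and 41.8 FPKM, and itga2b at 1 count in each library. In that list a gene named thbs1 and plek were at least 2-fold higher, but the count ratio of plek was 1.72 (1.27 to 2.36), since its listed length was 2011 bases in siblings and 1214 in mutants. Of the 7 kept thrombocyte genes, 5 had a count interval above 1, among them f13a1b at 52.6 and 76.8 FPKM (1.45, 1.32 to 1.58). gp1bb was the 1 with an interval below 1 (0.86, 0.77 to 0.96), and that of 1 held 1. Among all tested genes 46.1% had an interval above 1 and 8.99% below. The part of hair cells and thrombocytes was not tested.

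spi1b (ENSDARG00000000767), which encodes the myeloid master regulator PU.1, was at 2.87 FPKM in siblings and 11.1 FPKM in mutants. Its counts were 33.0 and 122, a ratio of 3.39 (2.29 to 5.14), and 1.47% of the tested genes had a larger log2 fold than its 1.64. The FPKM ratio was 3.85, larger than the count ratio, because the listed length was 1993 bases in siblings and 1763 in mutants. The mutant count, 122.08, was not a whole number, so some of its reads were shared with other genes. By log2 fold spi1b stayed at least 2-fold higher in every setting, down to 1.03 with a pseudocount of 5. Its paralog spi1a was at 3.07 and 3.54 FPKM (count ratio 1.14, 0.74 to 1.76), and relative to spi1a, a pair chosen after the values were seen, spi1b was 2.97 times (1.63 to 5.43) as high in the mutant as in the sibling library.

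Myeloid marker genes were set beside spi1b. The 12 macrophage genes summed to 51.9 FPKM in siblings and 56.6 FPKM in mutants, with a median log2 fold of 0.11 over 9 kept genes, of which havcr1 (0.53 and 2.51 FPKM) and a gene named mfap4 (2.07 and 8.21 FPKM) were at least 2-fold higher. csf1rb, a receptor for the macrophage growth factor, was at 6.14 and 13.02 FPKM, while csf1ra was at 1.03 and 0.70 and the macrophage receptor gene marco at 1.38 and 1.57. Of 6 genes named mfap4, which share reads, 1 had an entry in the sibling table alone and was set to 0 in the mutant library. Others of them had higher levels and were lower in mutants, at 18.2 and 14.85 FPKM and at 12.5 and 6.05 FPKM. The latter had a count ratio of 0.52 (0.33 to 0.81). Of the 9 kept macrophage genes, 3 had a count interval above 1 and 1, this mfap4 gene, below 1. Among all tested genes these shares were 46.1% and 8.99%, but the kept genes had no limit on counts, so the sets are unlike. The 7 neutrophil genes summed to 793 and 1112 FPKM, all with count intervals above 1 and none at least 2-fold higher. Of all tested genes 46.1% had such an interval. Those of npsn and ncf1 held the ratio of the median gene, 1.21, and those of the rest lay above it. The list included lyz at 582 and 823, npsn at 75.7 and 85.9 and mmp13a at 54.9 and 78.7 FPKM. The part of myeloid cell numbers in the spi1b level was not tested.

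Other myeloid and lymphoid factors had a median log2 fold of 0.18 over 13 genes, with 1 gene past 2-fold higher and none past 2-fold lower. The higher gene was listed as irf4, an interferon regulatory factor, at 1.28 and 6.17 FPKM (12 and 63 counts, ratio 4.81, 2.57 to 9.81). cebpa, which acts with PU.1 in granulocytes and macrophages, was at 8.24 and 14.0 FPKM (1.69, 1.37 to 2.09). mafbb was at 3.02 and 6.35 FPKM, and irf8, which macrophages need, was at 1.47 and 1.08 with 15 and 12 counts. pax5, a B cell and midbrain factor, was at 1.62 and 0.54 FPKM, with 12 and 4 counts and an interval of the ratio that held 1 (0.31, 0.07 to 1.01). tcf7, at 3.93 and 2.15 FPKM with 30 and 17 counts, was the 1 gene of the 13 with an interval below 1 (0.52, 0.27 to 0.97). The intervals of 6 lay above 1. Among all tested genes 8.99% had an interval below 1 and 46.1% above.

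Across the 10 factors 3 were called higher in mutants and none lower, and the background was 7.72% and 1.05% of all tested genes. The shares are not over like sets, because runx1 and gata2b did not reach the limits that define the tested genes. Of the 3 called factors, gfi1aa and spi1b reached the limits through the mutant library alone, where they are high, and myb reached them in both libraries. The count interval lay above 1 for 5 of the 10 and below 1 for 1, where the background was 46.1% and 8.99%. It lay above the ratio of the median gene for 3 factors, myb, gfi1aa and spi1b, below it for lmo2 and gfi1b, and held it for the other 5. The median log2 fold of the 10 was 0.34 and that of all tested genes 0.27. Thus the middle of the list lay close to the middle of the transcriptome, with myb, gfi1aa and spi1b well above it and gfi1b below it.

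**Figure D2:**
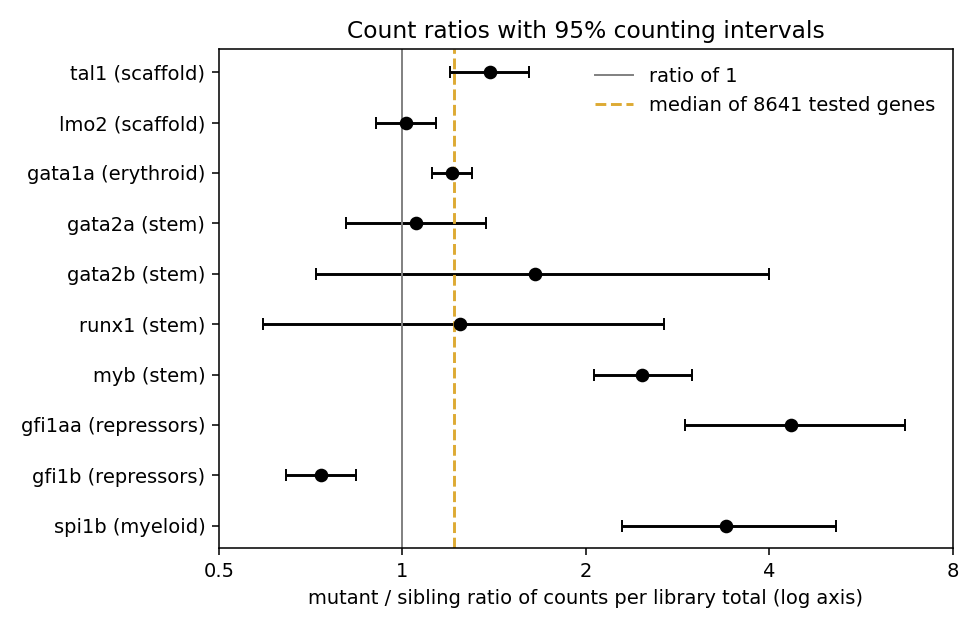
Mutant to sibling ratio of counts per library total for each factor on a log axis, with exact 95% counting intervals, a solid line at a ratio of 1 and a dashed line at the median of the tested genes, 1.21. The intervals of myb, gfi1aa and spi1b lie to the right of both lines and that of gfi1b to the left of both.

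Erythroid, stem and myeloid factors were also compared within each library as ratios to gata1a, which do not depend on scaling between libraries. The level of gata1a stood 45.7 times above spi1b in siblings and 14.5 times in mutants. The count ratio of spi1b to gata1a was 2.81 times (1.88 to 4.29) as high in the mutant library. For gfi1aa the value was 3.60 (2.39 to 5.57) and for myb 2.05 (1.68 to 2.51). It was 0.61 (0.52 to 0.71) for gfi1b and 0.84 (0.73 to 0.96) for lmo2. For tal1, gata2a, gata2b and runx1 the interval held 1, and those of gata2b (0.60 to 3.33) and runx1 (0.49 to 2.23) were too wide to show a difference of 2-fold. With alas2 as the reference in place of gata1a, all 9 values were higher, since alas2 itself was lower relative to gata1a in the mutant library. lmo2 then turned to 1.21 (1.08 to 1.35), while gfi1b stood at 0.88 (0.77 to 1.001) and spi1b at 4.04 (2.73 to 6.13). For pairs of the higher factors, chosen after the values were seen, the interval held 1, with spi1b to gfi1aa at 0.78 (0.43 to 1.41) and spi1b to myb at 1.37 (0.88 to 2.17).

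**Figure D3:**
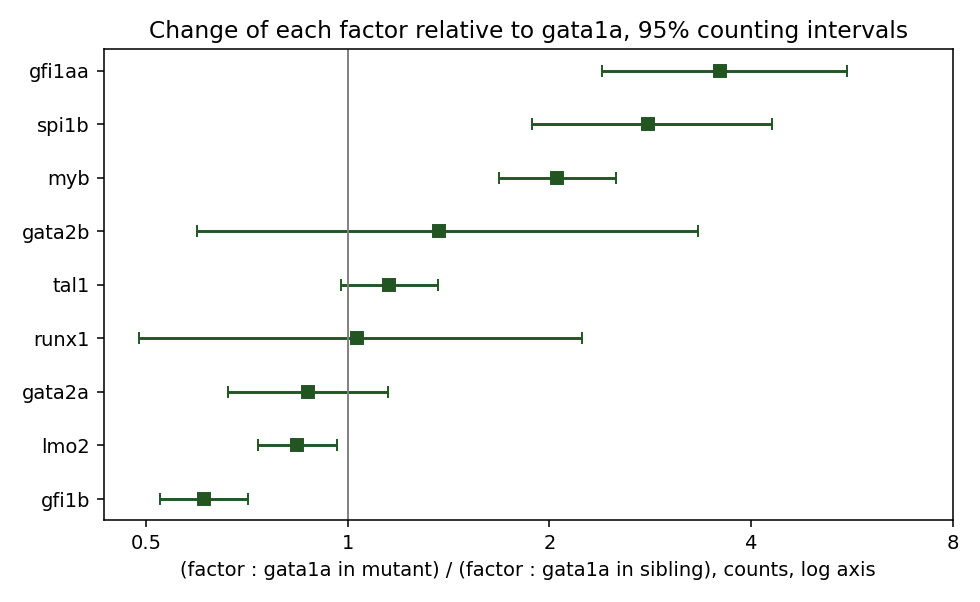
Ratio of each factor to gata1a in the mutant library divided by the same ratio in the sibling library, from counts, on a log axis with exact 95% counting intervals. gfi1aa, spi1b and myb lie above 1, gfi1b and lmo2 below it, and the other 4 intervals hold 1.

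Set against kdrl, which was itself higher in the mutant library, the same 3 factors stood differently. This comparison was chosen after the values were seen. kdrl was at 6.38 FPKM with 216 counts in siblings and at 21.3 FPKM with 785 counts in mutants, a count ratio of 3.33 (2.86 to 3.89). The count ratio to kdrl was 1.302 times (0.85 to 2.06) the sibling ratio for gfi1aa and 1.02 times (0.67 to 1.59) for spi1b, with intervals that held 1. It was 0.74 (0.58 to 0.95) for myb, 0.37 (0.17 to 0.82) for runx1 and 0.32 (0.23 to 0.43) for gata2a. It was 0.36 (0.30 to 0.43) for gata1a and 0.22 (0.18 to 0.27) for gfi1b. That of gata2b, 0.50 (0.21 to 1.22), held 1. With tal1 and lmo2 given above, none of the 10 factors had an interval above 1 against kdrl, and 3 of 9 had one against gata1a. That contrast follows from the count ratios of the references themselves, 3.33 for kdrl and 1.21 for gata1a, and is no further result about the factors.

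The settings moved the values of the factors without changing which were highest. Scaling by TMM moved the median gene by -0.26 on the log2 scale, and the log2 folds of gata1a, lmo2, gata2a and runx1 then lay between -0.25 and 0.04. Under TMM, median of ratios, centring and rescaling without the 10 highest genes, lmo2 and gata2a were negative along with gfi1b.

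**Figure D4:**
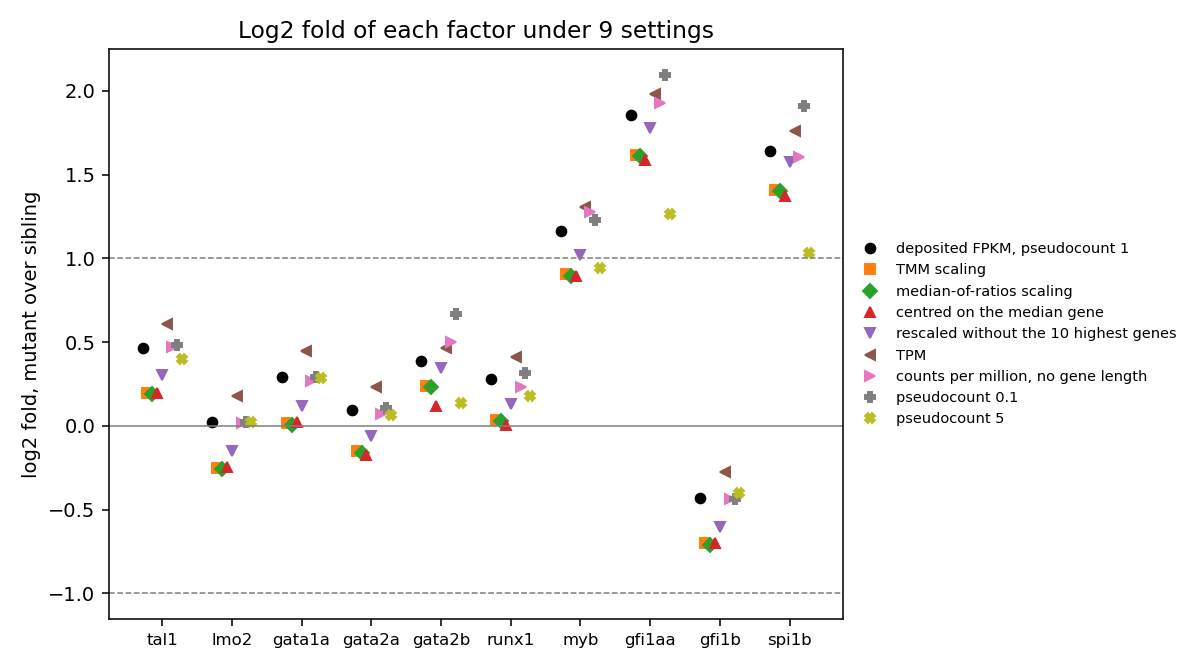
Log2 fold of each factor, mutant over sibling, under the deposited FPKM with a pseudocount of 1 (black circles) and 8 other settings, with dashed lines at the 2-fold limits. gfi1aa and spi1b lie above the upper limit in every setting, myb on either side of it, and gfi1b below 0 throughout.

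Other factors of stem cells and hemogenic endothelium had a median log2 fold of 0.22 over 15 genes, of which 4 were at least 2-fold higher and none lower. Beside this and the other lists, 7.22% of all genes with a mean FPKM of at least 1 were at least 2-fold higher and 1.29% lower. The higher genes included fli1, an ETS factor of endothelium and blood, at 7.55 and 39.1 FPKM (count ratio 3.77, 3.10 to 4.60). erg, its close relative, was at 2.82 and 7.83 FPKM, and hhex, a homeobox factor of early blood, endothelium and liver, at 3.75 and 12.6 FPKM with 11 and 40 counts. The gene matched to gfi1ab was the fourth of them, given above. lmo1, the paralog of lmo2, was at 5.94 and 5.42 FPKM, and meis1 at 44.2 and 47.2 FPKM. Over the 55 genes of the 4 factor lists with a mean FPKM of at least 1, 5 were at least 2-fold higher and none lower, with a median log2 fold of 0.19. Set beside the 7.22%, this count lay near the background.

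**Figure D5:**
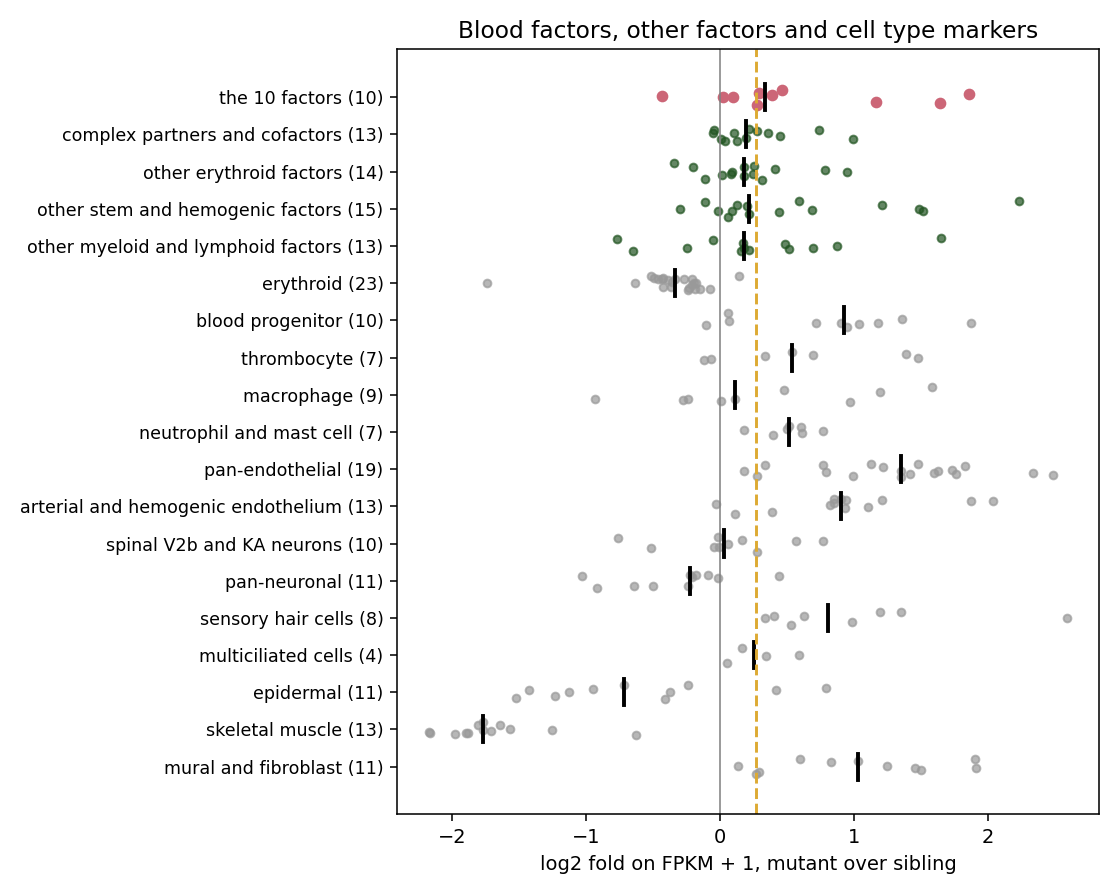
Log2 fold on FPKM + 1, mutant over sibling, of the 10 factors (red), genes of 4 lists of other factors (green) and genes of 14 marker lists (grey), each point 1 gene with a mean FPKM of at least 1 except for the 10 factors, all shown. Black bars mark medians, the dashed line the median of the tested genes (0.27), the number of genes is in brackets, and the vertical scatter within a row has no meaning.

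Markers of further cell types stood on both sides of the 10 factors. Medians were -1.77 for 13 skeletal muscle genes, of which 12 were at least 2-fold lower, and -0.72 for 11 epidermal genes, of which 4 were and 2, krt8 and cldnb, had a count interval above 1. The 11 pan-neuronal genes had a median of -0.22, with 1, a gene named stmn2, at least 2-fold lower and none higher. The 11 mural and fibroblast genes had a median of 1.03, with 6 at least 2-fold higher and none lower. Among these markers actc1b was at 231 and 65.5 FPKM, krt4 at 368 and 224, krt8 at 216 and 376, elavl3 at 68.6 and 59.2 and col1a1a at 95.1 and 104 FPKM. The count ratio of elavl3 was 1.03 (0.94 to 1.13), since its listed length was 2158 bases in siblings and 2577 in mutants. The part of these cell types in the levels of the factors was not tested.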

How the data were processed

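Each deposited table holds 1 library, with gene length, expected count and FPKM per Ensembl gene. The submitters' processing notes name bcl2fastq 2.16, BWA, Bowtie2, RSEM and the build GRCz10, with no role for each. The authors deposited expected counts that are not normalized. The deposited FPKM values are scaled by the assigned fragments of each library and carry no further scaling between libraries. Genes absent from a table were set to 0. The count ratio is of rounded expected counts per library total, and ratios of ratios use the exact conditional interval of the odds ratio (scipy 1.17.1). edgeR 4.0.16 gave TMM factors only. With 1 library per group, no test or p-value was computed. Symbols came from a table that named 91.3% of genes. The factors, the 4 lists of other factors and the 14 marker lists were chosen with earlier results of these data known, and lists share members. Of the 70 listed other factors, 61 matched a listed gene. List genes with a mean FPKM of at least 1 were kept. From each factor list up to 4 genes with the largest absolute log2 fold, paralogs of the factors and main cofactors were named. From each marker list up to 3 with the highest level were to be named. Several of these, among them sox18, egfl7 and hbae1.2, are not given above. Other genes were named after their values were seen. Alternatives were other scalings, pseudocounts, filters, reference genes and symbol matching. Intervals were tested on simulated Poisson counts. No genome coordinates or sequences were used here.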

Additional observations from a re-analysis of the deposited data

How the results depend on the processing

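The counts of factors at least 2-fold higher (3) or lower (0) stayed within 1.5 times under all alternatives run. The median log2 fold, 0.34, ranged from 0.07 once centred on the median gene to 0.45 under TPM. It moved by less than 0.327, the median half-width of the counting intervals of the factors on the log2 scale. That half-width is of single factors and does not measure the error of a median over 10. Of the 80 log2 folds of single factors over 8 settings, 61 shifted from the main value by less than their counting interval reaches from the count ratio. The other 19 shifted by more, none of a called factor changing sign. This measures the size of the shift and not whether the value lay inside the interval. Under TMM the log2 fold of myb, 0.90, lay below its interval and was still among the 61. The count of other factors at least 2-fold higher was 5, and it became 8 with a pseudocount of 0.1, 2 with a pseudocount of 5, 3 with a floor of 5 FPKM and 2 with symbols matched only as written, which was added after seeing the data. The count at least 2-fold lower was 0, and it became 1 once centred, 1 without the 10 highest genes and 1 with a pseudocount of 0.1. With alas2 as the reference the ratio of ratios of lmo2 turned from 0.84 to 1.21. This turn follows from the change of reference, since gata1a relative to alas2 was 1.44 times (1.33 to 1.55) as high in the mutant as in the sibling library. Why these 2 reference genes differ was not tested, nor was the cause of the other moves. No replicate could be left out. No paired analysis was possible because each group has 1 library. Depth limits runx1 and gata2b most, with 10 to 19 counts per library.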
